A study of Mus musculus with 2 samples.

Results

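The regions described here are stretches of open chromatin that lay inside introns of protein-coding genes, far from any transcription start site, and were open in both ends of the developing mouse femur. Overlapping peaks of the proximal and the distal list were merged into 32388 regions, and 23635 of them (73.0%) held a peak of each end. Members were chosen by these peak calls, so their presence in both lists is part of their definition and no result. Of the shared regions, 10311 lay more than 3 kb from every start site in GENCODE mouse release 21, 9682 of these overlapped no exon, and 3649 of those overlapped a protein-coding transcript. These 3649 shared intronic regions were 11.3% of all merged regions and 15.4% of the shared ones, and together covered 2501680 bp. The distance limit separated close neighbours, since the nearest regions kept were 3005, 3005 and 3007 bp from a start site and the nearest ones left out were 2987, 2985 and 2974 bp away. In 3589 regions there was 1 host gene, and 60 regions lay in 2 or more overlapping genes.

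The tissue was the cartilaginous proximal and distal end of the femur, labelled as chondrocytes, from E15.5 embryos (day of gestation) of mouse strain FVBNJ that carried no transgene or treatment named in the labels. Ends were pooled within litters, and each end had 2 biological replicates. Open chromatin was profiled by ATAC-seq, in which the Tn5 transposase cuts accessible DNA and tags it for sequencing. The deposited files gave 1 list of peak positions per end, which combined both replicates and held no height or score. Reads and replicate lists were not used here. No value below therefore carries a replicate error, the depth behind a peak is unknown, and no test between the ends was made. Intervals on shares are 95% Wilson intervals, which treat regions as independent and cover counting error only.

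Introns are removed from the transcript, but their DNA can hold enhancers, which are short stretches bound by transcription factors that raise transcription of a promoter from a distance. An intronic enhancer may act on its host gene or on another gene nearby. Cartilage of the growing long bone is made by chondrocytes, whose matrix genes are controlled by Sox9 with Sox5 and Sox6, and whose growth is set by hedgehog, PTHrP, FGF, BMP and TGF-beta signals.

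The labelled cell type was compared with shared regions within 1 kb of the start sites of marker genes. Of 12 chondrocyte markers, 8 (66.7%) had such a region, among them Sox9, Sox6, Col2a1, Acan and Matn3, beside 54.9% of all autosomal protein-coding genes. The markers Sox5, Matn1, Comp and Pth1r had none. A broader list of cartilage matrix genes had one in 10 of 22 (45.5%). None of 6 skeletal muscle markers, 5 blood markers or 4 osteoblast markers had one, while 2 of 5 endothelial markers (Kdr and Flt1), 1 of 5 epithelial markers (Epcam) and 4 of 5 neuronal markers did. Rbfox1, Cntnap2 and Dlg2, which are among these neuronal markers, belong to the longest genes of the genome. A peak in bulk tissue cannot tell a site open in many cells from one open in fewer cells of another type, and the part of other cell types in the results below was not tested.

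Sequences are shown for the host genes that led the 2 rankings described below, as examples of the matches that the motif results count. For each gene the region with the most matches to the searched motifs was taken, and its central 200 bp are printed from the RefSeq GRCm38.p6 assembly, which has the mm10 coordinates of the peak lists. Capitals mark matches on either strand to TGANTCA (AP-1, the site of Fos and Jun proteins), TGACGTCA (CRE, the site of CREB proteins), TGTGGT (RUNX), GGAATG (TEAD), CAGCTG (an E-box), CACGTG (another E-box), TAATTA (homeobox), TGTTTAC (FOX), ACAGGAAG (ETS), ACAATG (SOX) or GGGCGGGG (GC box). A match describes the letters and is not evidence that a protein was bound. The 6 genes with the most regions gave these windows.
Gm20388, chr8:120416738-120416937, + strand: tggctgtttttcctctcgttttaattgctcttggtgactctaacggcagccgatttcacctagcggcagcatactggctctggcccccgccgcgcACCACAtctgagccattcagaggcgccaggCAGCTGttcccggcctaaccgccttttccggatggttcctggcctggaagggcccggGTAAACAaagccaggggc
Pde4d, chr13:108813306-108813505, + strand: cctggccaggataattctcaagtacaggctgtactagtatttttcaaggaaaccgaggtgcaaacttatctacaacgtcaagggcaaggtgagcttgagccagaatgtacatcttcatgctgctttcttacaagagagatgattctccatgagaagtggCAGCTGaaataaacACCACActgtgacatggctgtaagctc
Dlgap1, chr17:70446539-70446738, + strand: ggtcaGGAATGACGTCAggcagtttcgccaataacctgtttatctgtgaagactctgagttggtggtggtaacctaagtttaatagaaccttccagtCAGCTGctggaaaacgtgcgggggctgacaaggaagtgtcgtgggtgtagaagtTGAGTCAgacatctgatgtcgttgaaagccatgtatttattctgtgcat
Fgfr2, chr7:130671271-130671470, + strand: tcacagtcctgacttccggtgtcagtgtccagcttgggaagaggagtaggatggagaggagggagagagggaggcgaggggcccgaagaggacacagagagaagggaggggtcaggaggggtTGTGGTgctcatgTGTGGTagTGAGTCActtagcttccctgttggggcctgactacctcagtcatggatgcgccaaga
Klhl29, chr12:5119761-5119960, + strand: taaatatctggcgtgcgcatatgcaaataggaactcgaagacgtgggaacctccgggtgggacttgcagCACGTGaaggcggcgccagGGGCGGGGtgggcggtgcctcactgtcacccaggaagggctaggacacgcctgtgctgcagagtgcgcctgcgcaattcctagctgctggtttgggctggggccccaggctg
Gpc6, chr14:116979422-116979621, + strand: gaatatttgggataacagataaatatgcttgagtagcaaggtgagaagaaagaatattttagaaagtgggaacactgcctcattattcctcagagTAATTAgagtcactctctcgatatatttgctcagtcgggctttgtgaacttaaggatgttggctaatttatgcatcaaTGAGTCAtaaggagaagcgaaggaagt
The Dlgap1 window held a TEAD match that runs into a CRE match, and an AP-1 match further on. The Fgfr2 window held 2 RUNX matches beside 1 AP-1 match. The Klhl29 window held a CACGTG and a GC box match, and the Gpc6 window an AP-1 and a homeobox match.

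The 4 genes with the most regions for their length gave the next windows. Each was picked for its number of motif matches, so the AP-1 matches in them are partly a product of that choice. Over all regions of these genes, AP-1 matches were in 2 of 3 in Bach1, 1 of 5 in Igfbp7, 2 of 3 in Il2ra and 1 of 3 in Hao1.
Bach1, chr16:87724893-87725092, + strand: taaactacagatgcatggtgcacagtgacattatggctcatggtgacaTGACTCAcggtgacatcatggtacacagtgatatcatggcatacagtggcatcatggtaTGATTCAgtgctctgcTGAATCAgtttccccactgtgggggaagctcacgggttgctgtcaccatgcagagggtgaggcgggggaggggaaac
Igfbp7, chr5:77358473-77358672, + strand: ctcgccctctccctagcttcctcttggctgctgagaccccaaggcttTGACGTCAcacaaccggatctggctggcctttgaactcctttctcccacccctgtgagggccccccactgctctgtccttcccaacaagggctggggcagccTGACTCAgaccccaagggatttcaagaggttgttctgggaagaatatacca
Il2ra, chr2:11651572-11651771, + strand: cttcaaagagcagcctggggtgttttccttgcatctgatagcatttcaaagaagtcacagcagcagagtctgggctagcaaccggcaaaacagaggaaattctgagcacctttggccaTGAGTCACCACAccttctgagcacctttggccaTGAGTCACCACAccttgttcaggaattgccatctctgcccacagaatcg
Hao1, chr2:134545184-134545383, + strand: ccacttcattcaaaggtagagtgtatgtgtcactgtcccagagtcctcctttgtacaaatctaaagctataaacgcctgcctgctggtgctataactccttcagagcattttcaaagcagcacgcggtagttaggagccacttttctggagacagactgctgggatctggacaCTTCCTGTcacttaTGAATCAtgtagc
The Bach1 window held 3 AP-1 matches. The Il2ra window held the run TGAGTCACCACA at 2 places, an AP-1 match whose last base is the first base of a RUNX match. The Igfbp7 window held a CRE match and an AP-1 match, and the Hao1 window an ETS match and an AP-1 match close to each other.

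Windows of 3 growth plate genes that the text of the study names, Matn3, Pth1r and Fgfr1, are shown as well. These windows were chosen after their values were seen. Matn3 encodes matrilin 3, a cartilage matrix protein, Pth1r the receptor for PTHrP and Fgfr1 a receptor for fibroblast growth factors.
Matn3, chr12:8954300-8954499, + strand: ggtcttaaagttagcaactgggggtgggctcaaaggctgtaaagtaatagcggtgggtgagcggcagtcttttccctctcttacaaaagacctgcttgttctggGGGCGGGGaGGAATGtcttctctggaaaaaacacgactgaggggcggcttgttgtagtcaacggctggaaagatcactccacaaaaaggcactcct
Matn3, chr12:8969892-8970091, + strand: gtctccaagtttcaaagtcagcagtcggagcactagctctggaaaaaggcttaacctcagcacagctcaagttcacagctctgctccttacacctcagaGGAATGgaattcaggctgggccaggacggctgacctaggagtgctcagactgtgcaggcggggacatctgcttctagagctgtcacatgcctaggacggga
Pth1r, chr9:110732661-110732860, + strand: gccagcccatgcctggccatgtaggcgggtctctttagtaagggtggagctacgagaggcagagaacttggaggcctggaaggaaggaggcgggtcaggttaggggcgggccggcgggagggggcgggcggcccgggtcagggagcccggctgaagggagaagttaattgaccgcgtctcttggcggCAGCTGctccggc
Fgfr1, chr8:25536920-25537119, + strand: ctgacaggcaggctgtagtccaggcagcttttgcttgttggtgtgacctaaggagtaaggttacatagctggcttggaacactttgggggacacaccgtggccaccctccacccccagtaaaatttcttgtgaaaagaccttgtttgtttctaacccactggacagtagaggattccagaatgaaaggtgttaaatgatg
Both Matn3 windows held a TEAD match, and the window in intron 2 also held a GC box match 1 base away from it. The Pth1r window held 1 E-box match, and the Fgfr1 window held 0 matches to these letters.

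Shared intronic regions were 60.3% (59.0 to 61.5) of the 6053 merged regions that met the same rule on position, with 1311 further regions in the proximal list only and 1093 in the distal list only. The share was 62.8% (61.8 to 63.8) of 8528 regions far from start sites and outside genes, and 87.8% (87.3 to 88.3) of 13774 regions within 1 kb of a start site. Distance from the start site moved the share little. It was 60.5% at 3 to 10 kb, 60.5% at 10 to 30 kb, 60.2% at 30 to 100 kb and 57.3% (51.8 to 62.6) beyond 100 kb. The median distance of the shared intronic regions to the nearest start site was 16542 bp, with quartiles of 8193 and 34403 bp and a largest distance of 694857 bp. For 2163 regions (59.3%) the nearest annotated start site belonged to a host gene, and for 2995 (82.1%) this held when only protein-coding start sites were counted.

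The regions were compact and had similar outlines in both ends. The median merged width was 666 bp (quartiles 529 and 807, range 240 to 1770), against 984 bp for shared promoter regions. Proximal peaks had a median of 620 bp and distal peaks of 585 bp, and in the median region the overlap of the 2 peaks made up 86.3% of the merged width, with centres 29.0 bp apart. The proximal peak was the wider one in 59.6% of regions (58.0 to 61.2). Over all regions the median ratio of proximal to distal width was 1.037. The same share was 60.4% in shared intergenic regions and 54.4% in shared promoter regions. Intronic regions called in 1 list only were narrower, with medians of 494 bp (proximal) and 468 bp (distal). The lists hold no signal values, so a region missing from 1 list may still be open in that end.

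**Figure D1:**
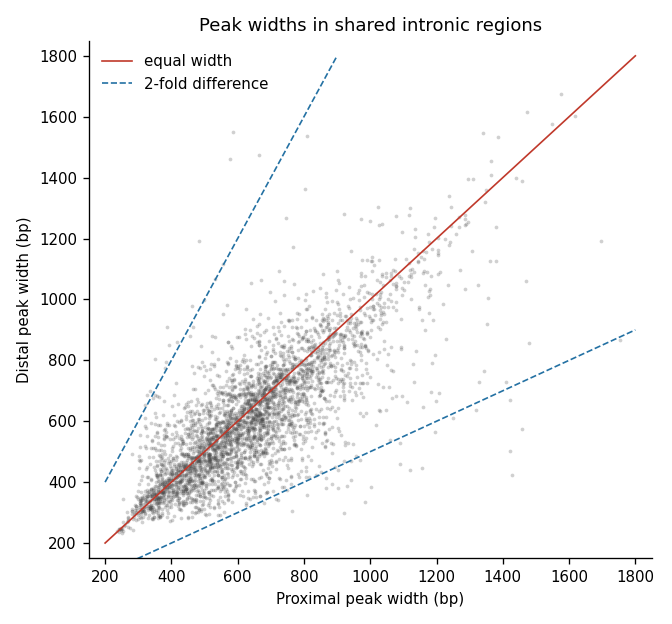
Width of the proximal peak (horizontal axis, bp) against width of the distal peak (vertical axis, bp), summed where a region held several peaks, for the 3649 shared intronic regions, 1 point per region. Most points lie along the line of equal width, and 47 regions lie beyond the dashed lines of a 2-fold difference, 30 with the wider peak in the proximal and 17 in the distal list.

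Among the 3 widest regions, the ends differed most in the widest. It was a 1770 bp region in Fhl2, which encodes a LIM-domain protein, at chr1:43168151-43169920, where the proximal peak spanned 1755 bp and the distal one 868 bp. The next, 1702 bp in Srgap3, had a proximal peak of 1697 bp and a distal peak of 1193 bp. The region at chr9:56880568-56882240 in the first intron of Cspg4, which encodes the NG2 chondroitin sulfate proteoglycan, was 1673 bp wide, with 1576 bp in the proximal and 1673 bp in the distal list.

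Among the hosts, 2118 genes held the 3649 regions in 3731 pairings of region and gene. Of the 14978 autosomal protein-coding genes with intronic bases that could hold such a region, 14.1% were hosts. In 1351 hosts there was 1 region, 767 held 2 or more, 110 held 5 or more and 6 held 10 or more. The 376 hosts with at least 3 regions made up 17.8% of hosts and held 42.8% of the pairings. Hosts had a median length of 125 kb, and eligible genes without a region one of 24.5 kb. Between neighbouring regions of 1 host the median gap was 37643 bp, and 56 of 1587 gaps (3.53%) were 2 kb or less.

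Long genes were hosts more often than short ones. Of genes up to 50 kb, 3.47% were hosts, and the share was 42.2% at 100 to 200 kb, 68.3% at 200 to 500 kb and 94.5% of the 55 genes over 1000 kb. Counted per 100 kb of gene, however, the regions were densest at 200 to 500 kb, with 0.520, and less dense both in genes up to 50 kb, with 0.177, and in genes over 1000 kb, with 0.305. Over all autosomal protein-coding genes the value was 0.365 per 100 kb. Gene length here includes exons and bases within 3 kb of start sites, where the rule allowed no region. In a short gene these can be a large part, as in Col2a1, with 9.98 of 29.1 kb eligible. The density by eligible length was not computed for these classes.

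**Figure D2:**
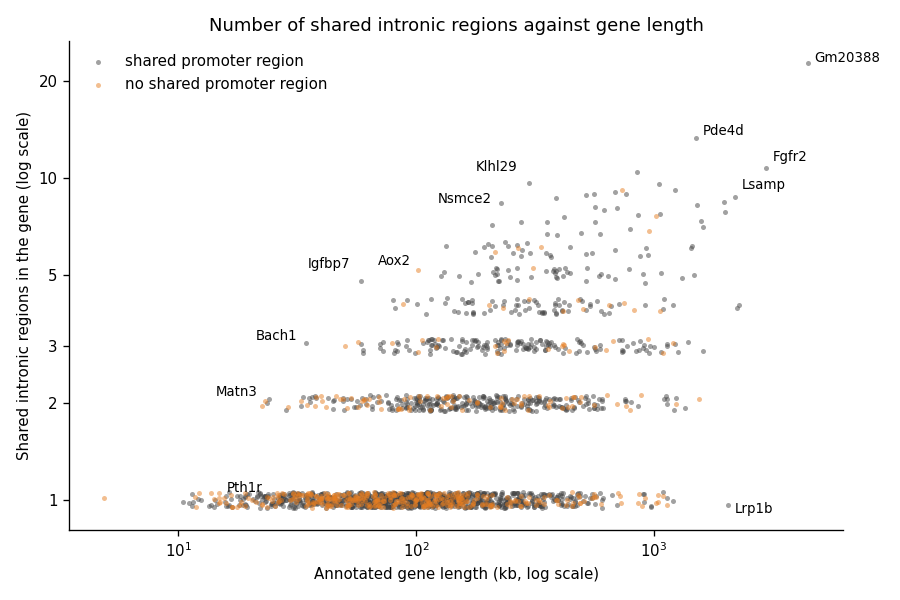
Number of shared intronic regions (vertical axis, log scale, points moved slightly up or down so that they can be told apart) against annotated gene length in kb (horizontal axis, log scale) for the 2118 host genes, coloured by whether a shared region lay within 1 kb of one of the gene's start sites. Gm20388, with 23 regions in 4435 kb, stands alone at the top right, and Igfbp7 and Bach1 lie at the left edge of their rows.

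By number of regions the ranking was led by Gm20388, with 23. This predicted gene model spans 4435 kb of chromosome 8 (chr8:119910841-124345722) with a first intron of 4384 kb, and 71 other protein-coding genes lie within it. All 23 regions fell in that intron, and 11 of them also lay in an intron of another gene. Pde4d, which encodes a phosphodiesterase that breaks down cyclic AMP, came next with 13 regions in 1504 kb, 5 of them in the first intron between 39.1 and 166 kb from the transcript start and 5 in the third. It held 2 proximal-only and 0 distal-only intronic regions.

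Dlgap1, a scaffold protein of synapses, and Fgfr2, a receptor for fibroblast growth factors that acts in bone growth, followed with 11 regions each. In Dlgap1, 6 regions were spread over the fourth intron of its representative transcript at 162 to 226 kb from the start, with widths from 543 to 1614 bp. Fgfr2 is annotated over 2961 kb because of long transcripts, while its representative transcript spans 102 kb. Only 1 of its 11 regions, 818 bp wide in both ends and 50.4 kb from the start, fell within the representative transcript, and 10 lay outside it.

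Klhl29, a kelch-like protein, and Gpc6, a glypican that carries heparan sulfate chains on the cell surface, held 10 regions each. Klhl29 packed them into 298 kb, or 3.35 per 100 kb, between 70.0 and 256 kb from its start and with widths of 340 to 859 bp, and 6 of the 10 held an AP-1 match in their central 200 bp. Gpc6 spread its 10 regions over 1051 kb, with 0 in the first intron, and held 2 proximal-only and 5 distal-only regions beside them. An AP-1 match was in 3 of its 10 shared regions.

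The other hosts among the first 15 held 9 or 8 regions. Ltbp1, which binds latent TGF-beta in the matrix, held 9 in 387 kb. Elmo1, a partner of Dock proteins in Rac activation, held 9 in 518 kb, Plcb1, a phospholipase C, 9 in 689 kb, and Zbtb20, a zinc finger repressor, 9 in 767 kb. Tenm2 and Lsamp, adhesion molecules known from neurons, held 9 each in 1229 and 2197 kb. Schip1 and Iqschfp overlap, and their 9 regions were the same 9. Nsmce2, a SUMO ligase of the SMC5/6 complex, held 8 regions in only 227 kb. One of them, at chr15:59447683-59449231, was 1549 bp wide in the distal list and 585 bp in the proximal list.

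**Figure D3:**
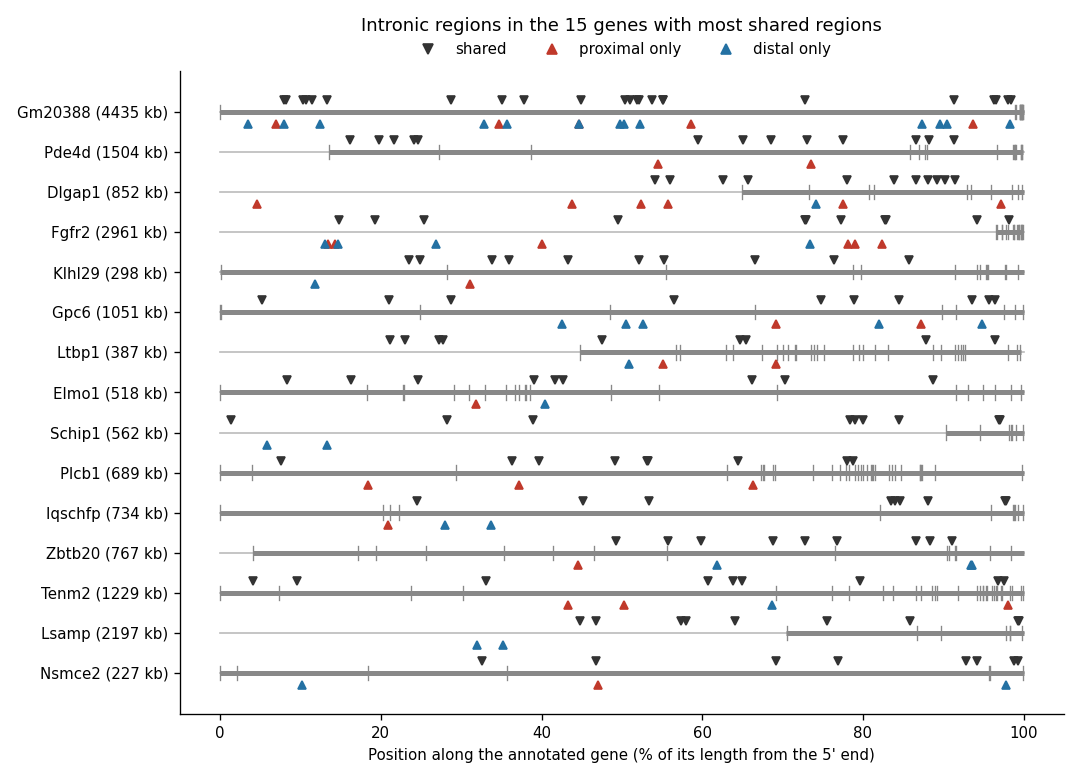
Position of intronic regions along the 15 genes with the most shared regions, in % of the annotated gene length from the 5' end (length in kb beside the name). Grey bars are the representative transcripts with exons as ticks, triangles above the line are shared regions and triangles below are proximal-only (red) or distal-only (blue) regions; in Fgfr2 all but 1 of the 11 shared regions lie upstream of the short representative transcript.

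Ranked per 100 kb among hosts with at least 3 regions, a different set of genes led. The first 10 had a median length of 59.3 kb, against 767 kb for the first 15 by number, and the 2 lists shared 0 genes. Among the first 50 of each ranking, 10 genes were the same. Bach1, a heme-regulated repressor that binds AP-1-like sites with small Maf proteins, was first with 3 regions in 34.4 kb, or 8.72 per 100 kb. Its regions were 678, 484 and 805 bp wide and lay in introns 1, 2 and 4, and 2 of the 3 held an AP-1 match.

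Igfbp7, a secreted protein that binds insulin-like growth factors, held 5 regions in 58.8 kb, or 8.50 per 100 kb. There were 4 in intron 2, at 7.83, 40.3, 41.8 and 49.5 kb from the start, and 1 in intron 3 at 53.4 kb. The region at 40.3 kb had a proximal peak of 852 bp and a distal one of 433 bp, while the other 4 differed less. Igfbp7 held 0 regions called in 1 list only.

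Il2ra, the alpha chain of the interleukin 2 receptor, held 3 regions in its first intron (5.95 per 100 kb), and Hao1, a peroxisomal oxidase best known from liver, held 3 (5.26 per 100 kb). Neither gene had a peak within 1 kb of a start site, so that their introns were open without a called promoter. Slc7a2, a transporter of cationic amino acids, held 3 regions, all in the first intron, of which 0 had an AP-1 match. Cemip2, a membrane protein that degrades hyaluronan, held 4, of which 3 had an AP-1 match. Morn1, Dagla, Aox2 and Steap3 completed the first 10, with 5.09 to 4.88 regions per 100 kb.

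In 13 of the 110 hosts with 5 or more regions there was no intronic region called in 1 list only. Over all 110 hosts, the 716 shared pairings stood beside 167 proximal-only and 118 distal-only ones, so 71.5% were shared. The hosts were ranked by their shared regions, so this percentage was raised by the choice of genes. Camk1d, a calcium-dependent kinase, and Kcnq5, a potassium channel, led these 13 genes with 8 shared regions each.

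First introns held a larger share of the regions than of the bases that could hold one. The first intron held 1093 of the 3731 pairings, or 29.3% (27.9 to 30.8). Eligible bases are intronic bases outside exons and more than 3 kb from every start site, counted in the representative transcript of each gene only. First introns made up 24.8% of them in the host genes. The pairings were counted more widely. Representative transcripts held 3453 of the 3731 pairings, and 970 of the 1093 in first introns. The second intron held 18.9% (17.7 to 20.2) against 16.3% of bases. The third held 11.8% against 11.1%, and introns 10 and over held 16.1% (14.9 to 17.3) against 21%. Per Mb of eligible bases in all genes, the density of pairings placed in representative transcripts was 5.96 in first introns, 5.86 in second introns and 4.23 in introns 10 and over.

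**Figure D4:**
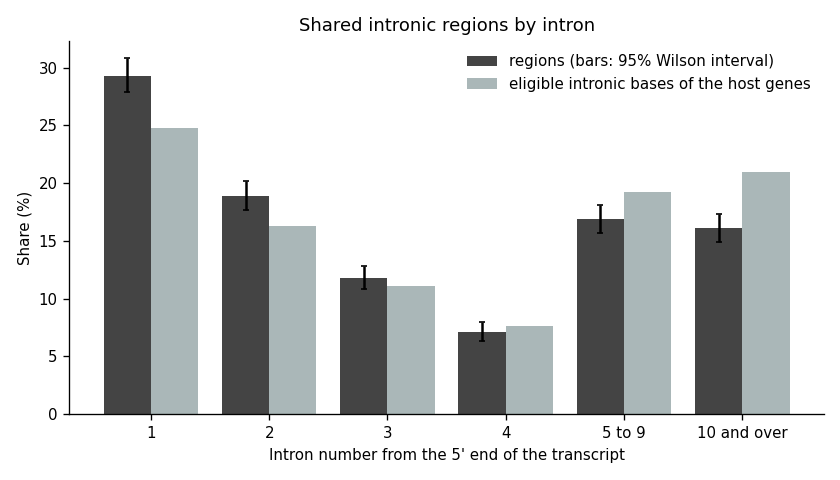
Share of the 3731 pairings of a shared intronic region with a host gene (dark bars, 95% Wilson interval) and of the eligible intronic bases of the host genes (light bars) by intron number. The light bars cover representative transcripts only, while the dark bars also count pairings placed in other transcripts. The dark bar is higher for introns 1, 2 and 3 and lower from intron 4 on.

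Of the 2118 hosts, 792 (37.4%) held a region in the first intron. The introns concerned were long. Their median length was 39043 bp, and that of all introns with eligible bases was 2249 bp. In hosts with more than 1 intron, 47.1% of pairings lay in the longest intron and 6.96% in the last. Within first introns, 26.5% (24 to 29.2) of pairings lay in the third of the intron nearest the 5' end, where bases within 3 kb of a start site were left out by the rule, and 37.5% (34.7 to 40.4) in the third farthest from it. Without Gm20388 the first-intron share was 28.9%.

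Host promoters were open more often the more regions a gene held. A shared region lay within 1 kb of a start site in 72.2% (69.8 to 74.6) of hosts of 1 region, 78.0% of hosts of 2, 86.8% of hosts of 3 or 4 and 92.7% (86.3 to 96.3) of hosts of 5 or more. Over all 2118 hosts the share was 76.2% (74.3 to 78.0), and in 12861 eligible genes without a region it was 59.3% (58.5 to 60.2). Within each class of gene length the gap between hosts and other genes was smaller. At 50 to 100 kb, 74.1% of hosts and 71.3% of other genes had a shared promoter region, and at 200 to 500 kb, 82.4% and 72.4%. The gap was widest at 500 to 1000 kb, with 77.9% of 131 hosts and 62.5% of 32 other genes. The part of gene length in the rise with the number of regions was not tested. Promoter peaks come from the same lists as the regions, so the 2 measures share their libraries.

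A further 380 hosts (17.9%) had no peak of either end within 1 kb of any start site, and 474 regions (13.0%) lay in such genes alone. Iqschfp led them with the 9 regions that it shared with Schip1, whose promoter was open. Astn2, a neuronal membrane protein, held 8. Cubn, the vitamin B12 receptor cubilin, held 6 in 215 kb, and Aox2, an aldehyde oxidase, 5 in 102 kb. Pappa2 and Pappa, proteases that release insulin-like growth factors from their binding proteins, held 6 and 4 regions. In Pappa2, 5 of the 6 regions held an AP-1 match, and in Pappa 3 of 4. Musk, a receptor kinase of the neuromuscular junction, held 4 regions at 18.8, 21.5, 45.5 and 53.4 kb from its start, of which 3 held an AP-1 match. Antxr1, a receptor that binds collagen, held 4, of which 0 did. AP-1 matches were in 4 of the 8 regions of Astn2, 3 of the 6 of Cubn and 2 of the 5 of Aox2. Over the 474 regions in genes without a promoter peak, 39.9% (35.6 to 44.3) held one, beside 39.8% of all shared intronic regions.

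The study names a number of genes in its text or in a supplementary list of regulatory elements. Of these, Xylt1, which starts glycosaminoglycan chains on proteoglycans, held 6 regions in 293 kb. There were 3 in the first intron at 34.0, 53.0 and 55.2 kb from the start, 632, 373 and 840 bp wide, and 3 in the second at 104, 111 and 129 kb, 910, 581 and 787 bp wide. Wwp2, a ubiquitin ligase whose gene hosts miR-140, held 3 regions. The one at 86.2 kb had a distal peak of 860 bp and a proximal peak of 416 bp. Matn3 held 2 regions in 24.1 kb, or 8.30 per 100 kb, too few to be ranked. The region in intron 2 was 937 bp wide in the proximal and 1042 bp in the distal list, and the one in intron 7, 413 and 354 bp.

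Col9a1, a chain of type IX collagen, held 2 regions, in introns 20 and 33. Cspg4 held 2, both in its first intron. Fgfr1, Pth1r and Hhip, a hedgehog-binding protein, held 1 each. The Fgfr1 region, at chr8:25536428-25537611, was 1184 bp wide in the proximal and 1078 bp in the distal list. The Pth1r region, 641 and 592 bp wide in intron 3, stood in a gene with no promoter peak, and the Hhip region, 763 and 684 bp wide, held both an AP-1 and a RUNX match. There were 0 regions in Col2a1, Acan, Chsy1, Sim2, Col11a2, Ihh, Runx2, Extl1 and Gdf5. Of these, Gdf5 had no eligible bases and Ihh 0.976 kb, so few or no regions could be found there, while Acan had 48.9 kb and Runx2 169 kb. Runx2 held 1 proximal-only region and Chsy1 1 distal-only region.

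Lists of growth plate genes held regions at more than the density of 0.365 per 100 kb over all genes. This density depended on gene length. It was 0.177 up to 50 kb, 0.356 at 50 to 100 kb, 0.477 at 100 to 200 kb and 0.520 at 200 to 500 kb. The lists were chosen with earlier results of these data known, so these are descriptions only. Over all eligible genes 14.1% were hosts, but the lists hold longer genes than average, and by length the share was 20.1% at 50 to 100 kb, 42.2% at 100 to 200 kb and 68.3% at 200 to 500 kb. Of 33 eligible chondrocyte and skeletal transcription factors, 22 were hosts (66.7%), with 51 regions and 0.616 per 100 kb, in genes of 188 kb in the median. Sox5, a partner of Sox9 on cartilage genes, held 7 regions in 954 kb, with widths of 559 to 1128 bp. Gli2, an effector of hedgehog signalling, held 5 in 219 kb, the transcription factor genes Zfp521 and Nfia 4 each, and Mef2c, which drives chondrocyte hypertrophy, 3. In Mef2c the region at 62.1 kb had a proximal peak of 921 bp and a distal peak of 299 bp. Sox6, at 568 kb, held 0 shared and 3 proximal-only regions.

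Cartilage matrix genes were shorter, with a median of 24.4 kb, and 5 of 20 eligible ones were hosts (25.0%). Of all eligible genes, 3.47% were hosts up to 50 kb, 20.1% at 50 to 100 kb and 42.2% at 100 to 200 kb. The hosts Col9a1 (75.1 kb), Col27a1 (121 kb) and Col11a1 (190 kb) were longer than 50 kb, and Matn3 (24.1 kb) and Dcn (38.5 kb) were shorter. The list held 8 regions, or 0.875 per 100 kb. Beside Matn3 and Col9a1, Col27a1 held 2, and Dcn (decorin) and Col11a1 held 1 each. Of 22 eligible genes of glycosaminoglycan synthesis and sulfation, 8 were hosts (36.4%), with 22 regions, 0.862 per 100 kb and a median length of 64.3 kb. Csgalnact1, which starts chondroitin sulfate synthesis, held 5 regions, Sulf1, a heparan sulfate sulfatase, 3, and Has2, the main hyaluronan synthase of developing cartilage, and Chst3, a chondroitin sulfotransferase, 2 each in 28.9 and 37.7 kb.

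Growth plate signalling genes were hosts in 18 of 42 eligible cases (42.9%), with 46 regions, 0.680 per 100 kb and a median length of 67.4 kb. After Fgfr2 and Ltbp1, the receptors Lrp5 (Wnt), Acvr1 (BMP) and Igf1r (insulin-like growth factor) held 3 regions each. Genes of the actin cytoskeleton and adhesion held the most per length of the 11 lists, 59 regions or 0.916 per 100 kb, and 21 of 36 eligible ones were hosts (58.3%), with a median length of 141 kb. Palld, an actin-bundling protein, held 7 regions, 6 of them in intron 10, Arhgap24 held 5 and the focal adhesion protein Tns3 held 4.

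Lists of other cell types were short. Osteoblast and epithelial genes held 0 regions in 9 and 7 eligible genes. The osteoblast list had a median length of 11.5 kb and the epithelial list of 39.5 kb. Of all eligible genes up to 50 kb, 3.47% were hosts, so 0 hosts in these lists lay near the share of short genes. Of 8 eligible skeletal muscle genes 1 was a host (12.5%), Neb, with 1 region and 0.0994 per 100 kb over the list. Of 12 blood and immune genes 2 were hosts (16.7%), Spi1 and Ptprc, with 2 regions and 0.159 per 100 kb. Of 10 endothelial genes 2 were hosts (20%), Flt1 and Cdh5, with 3 regions and 0.373 per 100 kb. The host shares of these 3 lists lay near the 14.1% over all eligible genes, and the endothelial density near 0.365. Long neuronal genes held 66 regions, and 16 of 18 were hosts. With a median length of 1173 kb this came to 0.262 per 100 kb. The value was 0.305 in all genes over 1000 kb, of which 94.5% were hosts, and 0.365 over all genes. Rbfox1 and Dlg2 held 8 each, and Lrp1b held 1 in 2058 kb. The longest genes with 0 shared intronic regions were Csmd1, Nrg3, Cntn4, Cadm2 and Sntg1, from 1643 to 938 kb.

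The central 200 bp of the regions held AP-1 letters far more often than their surroundings. TGANTCA was found in 1452 of 3649 windows, or 39.8% (38.2 to 41.4), and in 6.08% (5.56 to 6.66) of 7233 windows of the same length 2 kb to either side, a ratio of 6.54. With C or G as the central base, which gives TGACTCA on 1 of the strands, the shares were 33.4% and 3.46%, a ratio of 9.66. With A or T it was 9.45% against 2.68%, a ratio of 3.53. In 312 regions (8.55%) there were 2 or more AP-1 matches. The count was highest in the 50 bp on either side of the centre, with a match in 13.8% and 13.7% of regions, and had dropped to 2.33% and 2.11% at 250 to 300 bp.

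Regions outside genes held AP-1 in 35.3% (34.1 to 36.6), and promoter regions in 5.47% (5.08 to 5.89). Intronic regions called in the proximal list only held it in 43.9% (41.2 to 46.6) and those called in the distal list only in 32.9% (30.2 to 35.8). The share in shared intronic regions lay between these values. It was 39.6% at 3 to 10 kb from the nearest start site, 39.4% at 10 to 30 kb, 41.0% at 30 to 100 kb and 38.7% farther away. It was also close in hosts of 1 region, with 37.3% (34.8 to 40.0), and of 5 or more, with 39.8% (36.2 to 43.5). By width it fell from 44.1% (40.9 to 47.3) in regions up to the lower quartile of width (529 bp) to 32.6% (29.6 to 35.7) in those above the upper quartile (807 bp). The fixed central 200 bp cover a smaller part of a wide region, and the part of this in the fall was not tested. The proximal peak was the wider one in 63.5% (61.0 to 65.9) of regions with an AP-1 match and in 57.1% (55.0 to 59.1) of those without.

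**Figure D5:**
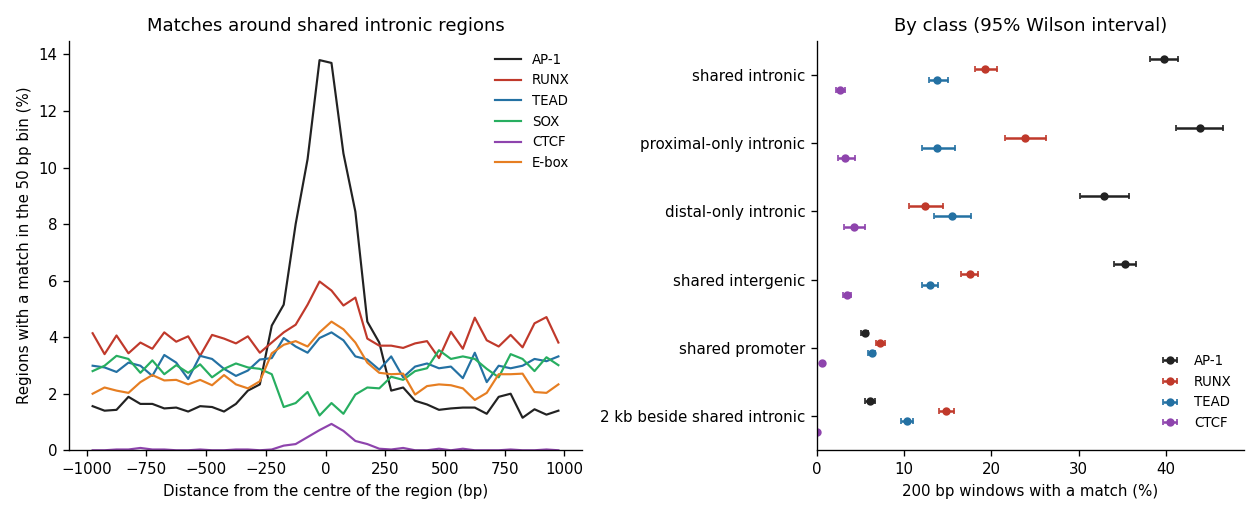
Left, share of the 3649 shared intronic regions (%) with a motif match in each 50 bp bin by distance from the region's centre (bp). Right, share of 200 bp windows (%) with a match in 5 classes of region and in windows 2 kb beside the shared intronic ones, with 95% Wilson intervals; AP-1 rises to 13.8% at the centre, and RUNX lies highest in proximal-only and lowest of the intronic classes in distal-only regions.

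The RUNX, TEAD and E-box letters differed less from the surroundings than AP-1. TGTGGT, the core of the site of RUNX factors such as Runx2 and Runx3, was in 19.3% (18.1 to 20.6) of windows against 14.8% (14.0 to 15.7) beside them. In proximal-only intronic regions it was in 23.9% (21.6 to 26.3), and in distal-only ones in 12.4% (10.6 to 14.5). GGAATG, the site of TEAD factors, was in 13.8% (12.8 to 15) against 10.3%, and CAGCTG in 564 windows (14.3 to 16.7%) against 8.78%. AP-1 and RUNX matches occurred together in 274 regions (7.51%), where AP-1 was in 39.8% and RUNX in 19.3% of all 3649 regions. Matches placed independently at these shares would meet about as often, so this count is no sign of pairing.

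ACAATG, a core site of SOX factors, was found less often in the regions than beside them, in 5.73% (5.02 to 6.53) against 11.4% (10.7 to 12.2). The base composition differed as well, with a median GC content of 48.5% in the regions and 44.0% beside them, and so did repeats, with a mean of 9.87% and 24% of bases masked. TAATTA, another AT-rich site, was likewise found in 4.66% against 6.42%, and the part of base composition in these differences was not tested. The longer paired SOX site, a palindrome with a spacer, was in 1 of 3649 windows, or 0.0274% (0.00484 to 0.155). Beside them it was in 6 of 7233, or 0.0830% (0.0380 to 0.181), and the intervals overlap.

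The CTCF site, bound by the factor that anchors chromatin loops, was rare but concentrated. It was found in 97 windows, 2.66% (2.18 to 3.23), against 3 of 7233 windows beside the regions. First introns held it in 1.28% (0.765 to 2.14) of pairings and later introns in 3.18% (2.58 to 3.93). Of regions up to the lower quartile of width, 7.83% (6.27 to 9.75) held it, or 72 of the 97, and of those above the upper quartile 0.439% (0.171 to 1.12). Here too the central 200 bp cover less of a wide region. Regions with a CTCF match had a median width of 457 bp, those with AP-1 640 bp. Hosts of 1 region held it in 3.83% (2.91 to 5.01) of regions and hosts of 5 or more in 1.72% (0.989 to 2.99).

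GGGCGGGG, the GC box found at many promoters, was in 1.59% (1.23 to 2.05) of shared intronic windows and in 19.6% (18.9 to 20.3) of shared promoter windows. The median GC content of promoter windows was 66.0%, and the median ratio of observed to expected CpG was 0.814 there against 0.233 in shared intronic regions. In hosts without a promoter peak the AP-1 share with C or G at the centre was 33.8% (29.6 to 38.1), and in hosts with a shared promoter region 32.9% (31.2 to 34.6), values whose intervals overlap.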

How the data were processed

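ATAC-seq peak positions of E15.5 proximal and distal femur ends were used, 1 deposited list per end. Reads had been mapped to mm10 by the authors using Bowtie2 (2.2.8 in the submitters' processing notes), who called peaks with MACS2 (2.1.1 in those notes, while the paper's methods give another version) and kept those reproducible between the 2 biological replicates at an irreproducible discovery rate under 0.05. The deposited lists hold positions without a signal value, and their depth is unknown. They name 19 autosomes, so genes on chromosomes X and Y were not analysed here.

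Peaks sharing at least 1 bp were merged and compared with GENCODE mouse release 21 and the GRCm38 assembly in Python 3.11.15, with NumPy 2.4.6, SciPy 1.17.1, pysam 0.24.0 and matplotlib 3.10.9. Distances were taken from region edges. Gene length was the annotated span. Introns were numbered in a representative transcript (APPRIS principal, then longest) or, for regions outside it, in the longest protein-coding transcript that held the region. The rank per 100 kb took genes of at least 10 kb with at least 3 regions. A promoter region lay within 1 kb of a start site. Motifs were searched on both strands of the central 200 bp. Region classes, introns and motif matches were tested on simulated data. Genes named were the 15 first by number, the 10 first per 100 kb, the 8 first without a promoter peak, up to 4 hosts per gene list, the 5 longest without a region, the hosts of the 3 widest regions and genes the study names. Mef2c, Sox6, Col11a1, Chst3, Igf1r and Lrp1b, the Matn3, Pth1r and Fgfr1 sequences, the 13 hosts without regions of 1 end and the split of AP-1 by its central base were chosen after their values were seen. Results for 2 further genes are not reported here. Members and lists were chosen with earlier results of these data known.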

Additional observations from a re-analysis of the deposited data

How the results depend on the processing

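No paired analysis was possible because the deposited lists combine the replicates. Under the alternatives, 18 values stayed within the interval of the value reported (or within 1.5 times of a count) and 16 moved. Restricting each list to peaks of its median width or more left 842 regions (23.1% of the number), a shared percentage of 46.5, a first-intron share of 32.0% and 2 of the 15 first hosts; shared intronic regions have a lower median width (666 bp) than promoter regions (984 bp), so this setting removes most of them by construction. The first-intron share was 27% beyond 10 kb, 38.0% when the first intron of any transcript counted and 26.0% when it had to be the first of every transcript. The 24.8% of bases was not recomputed for these. Of the 10 hosts first per 100 kb, 6 stayed when only eligible length counted and 2 when at least 5 regions were required. With a peak of either end as the criterion, 82.1% of hosts had an open promoter. In whole regions, which are longer than 200 bp, the shares were 62.3% for AP-1, 44.5% for RUNX, 37.4% for TEAD and 3.86% for CTCF, and around the stretch common to both ends AP-1 was in 43.2%. The remaining 3 settings were chosen after seeing the data. AP-1 with C or G at the centre gave 33.4%, the first-intron share without Gm20388 was 28.9%, and counting only regions within the representative transcript kept 11 of the 15 first hosts. The main limits are the single list per end, the lack of peak heights and the annotation, whose very long models raise the number of regions per gene.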

Other observations

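Counted per Mb of eligible intronic bases, shared intronic regions ranged over the autosomes from 3.50 on chromosome 9 and 3.87 on chromosome 11 to 5.90 on chromosome 3 and 5.98 on chromosome 10. ACAGGAAG, an ETS site, was found in 3.56% (3.01 to 4.21) of the central windows and in 1.89% (1.60 to 2.23) of windows 2 kb beside them. TGTTTAC, a FOX site, was in 3.78% against 2.85%, and CACGTG in 2.71% against 2.67%. The CRE letters were in 0.576% against 0.221%. TTTATTG, a site of posterior Hox factors, was in 2.49% against 4.88%. At least 1 of the AP-1, RUNX, TEAD, SOX, NFI and CTCF motifs was present in 2282 regions (62.5%), and at least 2 of them in 622 (17.0%). These combined shares were not counted in the windows beside the regions. Short motifs were common there too, with RUNX in 14.8%, SOX in 11.4%, TEAD in 10.3% and AP-1 in 6.08%.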
